A study of Bos taurus with 18 samples.

Results

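A group of 7 genes that follicle stimulating hormone (FSH) is known to act on or through in granulosa cells are described here in bovine cumulus cells: the FSH receptor gene FSHR, the LH receptor gene LHCGR, the oestrogen synthesis genes CYP19A1 and HSD17B1, and the inhibin and activin subunit genes INHA, INHBA and INHBB. Members were taken by gene symbol in the array platform's annotation, which gave 10 of 43794 gene probes, for 7 of 15216 named genes. Of these, 8 probes of 6 genes were bright enough to test. Cumulus cells are the granulosa-derived cells that enclose the oocyte. They came from 6 Holstein cows, aged 4 years on average, in 24 collections, and each cow went through all 4 conditions in its own luteal phase. All animals, the 20 h controls included, had received 6 doses of 40 mg of Folltropin-V (FSH) over 3 days, one every 12 h, and then no FSH during a coasting period of 20, 44, 68 or 92 h. The samples are cumulus cells coasted for 44 h or 68 h, from follicles of 6 to 8 mm, and for 92 h, from follicles over 8 mm, each set against cumulus cells coasted for 20 h, from follicles of 3 to 5 mm. Against 20 h, and between 92 h and the shorter times, coasting time therefore cannot be told apart from follicle size, and only 44 h and 68 h share a size class. There were 3 replicates per time, each hybridised against 20 h RNA on 2 arrays of opposite dye. The labels do not say which cows went into which replicate, so a p-value speaks only of how these samples vary.

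FSH binds its receptor on granulosa cells and raises cyclic AMP, and protein kinase A then switches on genes for oestrogen synthesis and for inhibin. CYP19A1 encodes aromatase, which turns androgens from the theca into oestrogens, and HSD17B1 encodes the enzyme that reduces oestrone to oestradiol. INHA encodes the inhibin alpha subunit. INHBA and INHBB encode the beta subunits, which pair with alpha as inhibin, a brake on pituitary FSH, or with each other as activin. LHCGR encodes the receptor through which a large follicle can go on growing when FSH is low. In the cow it is known mainly from the theca and, in large follicles, from mural granulosa cells.

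After 92 h of coasting, 3 things stood out in the values. CYP19A1 (by its brightest probe), INHBA and INHBB differed strongly between replicates, far below 20 h in replicate 2 and slightly above it in replicate 3, and no mean passed the test. INHA read lower in every 92 h and 68 h replicate with both dyes averaged, but 68 h replicate 3 gave 0.26 with coasted RNA in Cy5. Across the 9 replicate ratios, CYP19A1 (by its brightest probe) and the 3 inhibin subunit genes moved together, FSHR less closely, and HSD17B1 did not follow them in the ratios. The 20 h partners enter these ratios, and on coasted samples alone the picture differed. There HSD17B1 followed INHBB (r = 0.92) and CYP19A1 (0.72), INHBA and INHBB had 0.62 in place of 0.99, and CYP19A1 and INHBB kept 0.85. None of the 8 tested probes passed an adjusted p of 0.05 at any time (limma over 27391 probes, Benjamini-Hochberg adjustment). With the sets of 20 h channels described below as a block, 1 of CYP19A1 passed at 92 h. The p of that fit leaves out the differences between sets. At 44 h and 68 h the test without this block called 0% of all probes, and at 92 h it called 1.3%, with 0.559% lower. At an unadjusted p under 0.05 there were 0 member probes at 44 h, 0 at 68 h and 2 at 92 h, beside 9.22%, 11.5% and 15.7% of all probes. The median log2 ratio over the 8 probes was -0.43 at 44 h, -0.12 at 68 h and -0.95 at 92 h, against 0 for all probes tested at each time. Probes with all 3 replicates below their 20 h partners numbered 0 of 8 at 44 h, 3 at 68 h and 4 at 92 h, where 11.6%, 19.8% and 19.8% of all probes had this. The 3 CYP19A1 probes share 1 gene, so these 8 values are not independent. The dimmest CYP19A1 probe, EMBV3_08064, was kept through its 20 h channels alone, so its place in these counts is no support for a fall. In such bulk RNA, less transcript per cell and fewer cells of a type cannot be told apart.

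Values below are log2 ratios of coasted over 20 h RNA, averaged over both dyes, in the order of replicates 1, 2 and 3. A level is the log2 intensity of one channel, scaled across arrays, and is set only against other levels of the same probe. The 20 h levels have to be read with one fact in view. Across all 27391 tested probes, the 20 h channels fell into 3 sets of 3 channels whose deviations correlated with r of 0.59 to 0.89 over the 9 pairs within a set and of -0.71 to -0.08 over the 27 pairs between sets. Set A holds the 20 h channels of 44 h replicate 1, 68 h replicate 3 and 92 h replicate 1. Set B holds those of 44 h replicate 2, 68 h replicate 1 and 92 h replicate 2, and set C those of 44 h replicate 3, 68 h replicate 2 and 92 h replicate 3. The labels do not say that 20 h RNA was shared, but the 9 ratios may rest on 3 samples of 20 h RNA. The fit treats them as independent, so its p-values may be too small or too large.

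FSHR was above background on 18 of 18 arrays in the 20 h channel and on 6 of 6 at each longer time. Its ratios were 0.11, -0.31 and -1.10 at 44 h, a mean of -0.43 ± 0.61 (SD, n = 3 here and below; adjusted p = 0.6939 from limma). At 68 h they were -0.11, -0.03 and 0.05, the narrowest spread of any tested member, with a mean of -0.03 ± 0.08. At 92 h they were 0.03, -0.93 and -0.01, a mean of -0.30 ± 0.54 (adjusted p = 0.6758 from limma). Thus 44 h replicate 3 and 92 h replicate 2 were the low ones, and the other ratios lay between -0.31 and 0.11. The levels show the same: 9.03 and 9.35 in those 2 samples, between 9.85 and 10.18 in the other coasted samples, and between 9.98 and 10.28 in the 20 h channels. FSHR was the tested member whose 20 h level varied least between the 3 sets, with set means of 10.09, 10.21 and 10.09.

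LHCGR was not well above background. Its first probe passed in 2 of 18 channels at 20 h and its second in 0 of 18, and neither passed on any of the 6 arrays at 44, 68 or 92 h. No ratio is given for it, since dim probes have compressed ratios, and a low level of this transcript could not have been seen with these probes.

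CYP19A1 was read by 3 probes. The brightest, EMBV3_07330, gave ratios of 0.06, -1.82 and -0.35 at 44 h, -1.80, 0.73 and -0.12 at 68 h and -1.05, -2.88 and 0.69 at 92 h. By this probe, each longer time thus held 1 replicate far below its 20 h partner and 1 about level with it or above. The other probes did not read above 20 h in 68 h replicate 2 (-0.47 and -0.03) or 92 h replicate 3 (-0.57 and -0.05). The means were -0.70 ± 0.99 at 44 h, -0.40 ± 1.29 at 68 h and -1.08 ± 1.78 at 92 h, with adjusted p of 0.8606, 0.8618 and 0.5756 (limma). The 95% interval at 92 h ran from -2.82 to 0.66, so neither a large fall nor a modest rise was outside it. The SD at 92 h was larger than that of 99.9% of tested probes. Without 68 h replicate 1 the mean at 68 h was 0.30.

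The 3 low replicates of CYP19A1 (44 h replicate 2, 68 h replicate 1 and 92 h replicate 2) are those whose 20 h partner is in set B. The coasted levels at 92 h were 9.21, 8.32 and 9.05, against 10.26, 11.20 and 8.36 in the 20 h channels of the same arrays. The coasted samples thus lay closer together at this time than their 20 h partners. By set, the 20 h level was 10.23 in A, 11.17 in B and 8.36 in C, and within a set the 3 channels differed by at most 0.07. Coasted levels were 10.27, 9.36 and 8.02 at 44 h and 9.33, 9.09 and 10.11 at 68 h. All 3 samples at 92 h lay below sets A and B and overlapped with set C.

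The other CYP19A1 probes were dimmer and read below 20 h in all 3 replicates at 92 h. EMBV3_36093 gave 0.16, -0.73 and -0.33 at 44 h, -0.78, -0.47 and -0.08 at 68 h and -0.25, -1.27 and -0.57 at 92 h. Its mean at 92 h was -0.69 ± 0.52, with an unadjusted p of 0.02179 and an adjusted p of 0.2125 (limma). A fit with the 20 h set as a block was added after the data were seen. There the same mean had an SE of 0.06 in place of 0.24 and passed (adjusted p = 0.02194, limma). That fit takes the differences between sets out of the error, so its p does not cover how the 20 h RNA varied. The 20 h set means of this probe were 8.29 in A, 9.05 in B and 8.68 in C. Levels of EMBV3_36093 were 8.27 to 9.08 at 20 h, 8.28 to 8.48 at 44 h, 8.18 to 8.30 at 68 h and 7.80 to 8.09 at 92 h. The 92 h levels of this probe did not overlap with those of any other time. By 92 h it was above background on 3 of 6 arrays, so the size of the difference may be understated. EMBV3_08064 was above background on only 1 of 6 arrays at each longer time and gave -0.04, -0.60 and -0.05 at 92 h. Over the 9 ratios these probes followed the brightest with r of 0.69 and 0.86 (Spearman's rho 0.57 and 0.63).

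HSD17B1 varied in another order. Its ratios were -0.19, 1.72 and -2.78 at 44 h, with the highest and the lowest of all its 9 values at this one time. At 68 h they were 0.86, -1.18 and 0.79, and at 92 h -0.66, -0.42 and -2.03. The means were -0.42 ± 2.26, 0.16 ± 1.16 and -1.04 ± 0.87, with adjusted p of 0.9388, 0.9547 and 0.6447 (limma). At 92 h all 3 replicates were lower than their 20 h partners, with an SD nearly as large as the mean. Without 44 h replicate 3 the mean at 44 h was 0.76, and without 68 h replicate 1 that at 68 h was -0.19. The coasted levels at 92 h were 8.91, 8.48 and 9.02, against 9.57, 8.91 and 11.05 in the 20 h channels. These 92 h levels lay below all 3 levels at 68 h, which were 9.67, 9.86 and 10.41.

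In the 20 h channels HSD17B1 ran against the brightest CYP19A1 probe. HSD17B1 read 9.64 in set A, 8.87 in set B and 11.07 in set C, while that probe was highest in B and lowest in C. The other CYP19A1 probes were also highest in B, but EMBV3_36093 was lowest in A (8.29, against 8.68 in C) and EMBV3_08064 read 7.90 in A and 7.89 in C. AMH, the anti-Müllerian hormone gene, which is highest in small growing follicles, had ratios of -0.43, 1.42 and -2.31 at 44 h, close to those of HSD17B1. At 92 h AMH gave -0.76, -1.07 and -1.76 (mean -1.20 ± 0.52, adjusted p = 0.4445, limma). AMH was singled out after its values were seen.

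**Figure D1:**
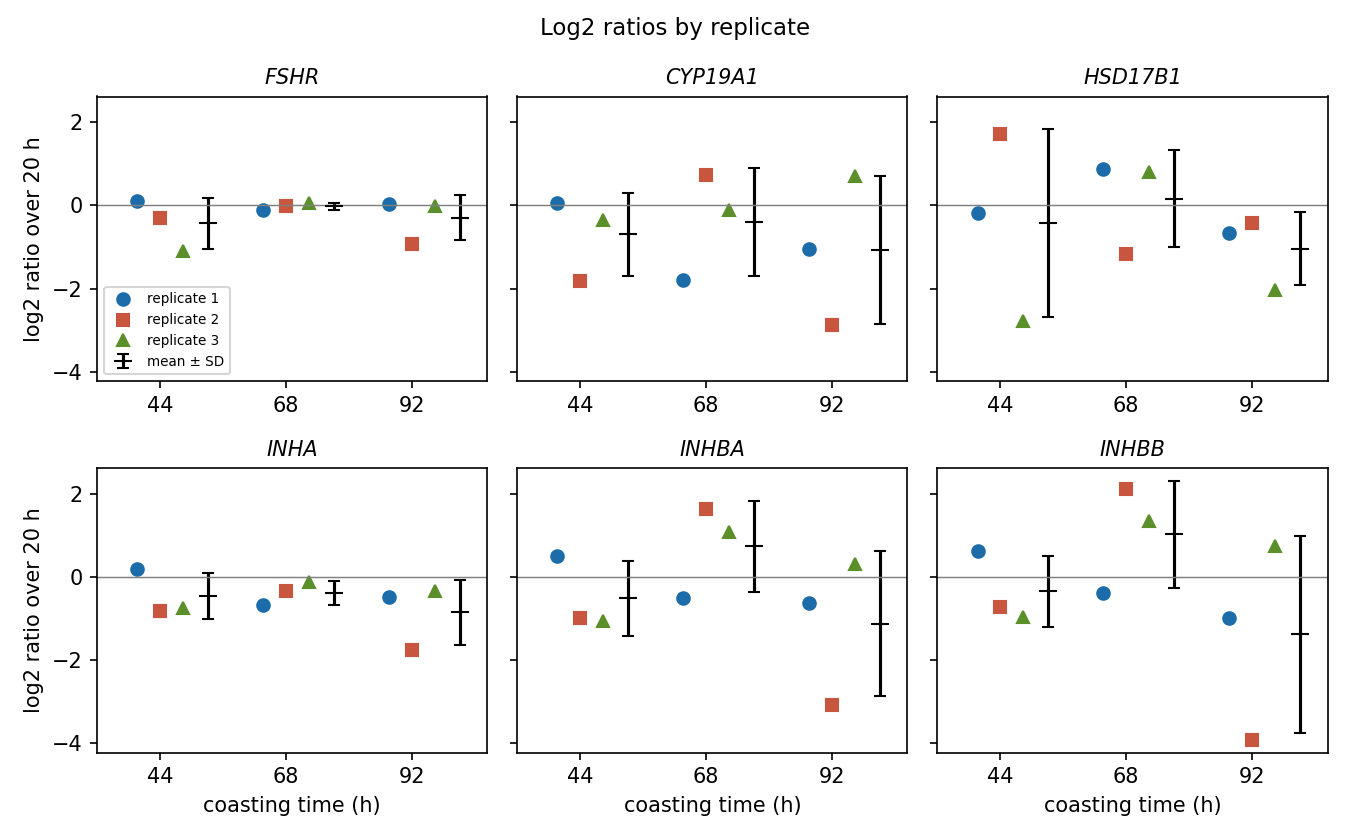
Log2 ratio of coasted over 20 h RNA (y axis) at 44, 68 and 92 h of coasting (x axis) for the brightest probe of each tested gene, with points for replicates 1 to 3 and a bar for the mean ± SD. At 92 h replicate 2 is lowest for FSHR, CYP19A1, INHA, INHBA and INHBB, whereas HSD17B1 is lowest in replicate 3.

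INHA, the alpha subunit gene, read below 20 h in all replicates at 68 h and 92 h, as did the dimmer CYP19A1 probes. Its ratios were 0.19, -0.83 and -0.74 at 44 h, -0.68, -0.35 and -0.12 at 68 h and -0.49, -1.75 and -0.33 at 92 h. The mean was -0.39 ± 0.28 at 68 h (adjusted p = 0.6558) and -0.85 ± 0.78 at 92 h (unadjusted p = 0.02657, adjusted p = 0.2326, limma). Its 92 h levels of 14.50, 13.47 and 14.70 stood against 14.98, 15.21 and 15.04 in their 20 h channels, and none of them reached the lowest of all 9 channels at 20 h, 14.93. The 68 h levels, from 14.49 to 14.83, did not reach it either.

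INHBA gave 0.51, -0.99 and -1.06 at 44 h, -0.50, 1.63 and 1.07 at 68 h and -0.62, -3.07 and 0.30 at 92 h. Replicates of one time thus pointed in both directions at each time. The means were -0.52 ± 0.89, 0.73 ± 1.10 and -1.13 ± 1.74, with adjusted p of 0.8995, 0.7067 and 0.5157 (limma). INHBB gave 0.63, -0.73 and -0.97 at 44 h, -0.38, 2.12 and 1.33 at 68 h and -0.98, -3.91 and 0.75 at 92 h. Its means were -0.35 ± 0.86, 1.02 ± 1.28 and -1.38 ± 2.36, with adjusted p of 0.9548, 0.6751 and 0.5289 (limma). The value of -3.91 in 92 h replicate 2 was the lowest ratio of any member in any replicate. Without that replicate the 92 h mean was -0.11 for INHBB, -0.16 for INHBA, -0.41 for INHA, -0.18 for the brightest CYP19A1 probe and 0.01 for FSHR, so a large share of each mean came from 1 sample.

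INHBB read lower at 92 h than at 68 h in levels and in ratios, without passing the test. Coasted levels were 12.06, 12.23 and 8.98 at 44 h, 12.37, 12.11 and 12.82 at 68 h and 10.55, 9.27 and 10.75 at 92 h. The 3 samples at 92 h were all below the 3 at 68 h, without overlap. The 20 h level, however, was 11.49 in set A, 12.96 in set B and 9.98 in set C, a range of 2.99 between set means, so that a ratio depended on its partner. Fitted on the coasted levels alone, an analysis added after the data were seen, INHBB was lower at 92 h than at 68 h by a difference of -2.25 (95% interval -4.29 to -0.20, unadjusted p = 0.03518, adjusted p = 0.5145, limma). Through the ratios the same difference was -2.40 (adjusted p = 0.9607), and with the 20 h set as a block it was -2.40 with an unadjusted p of 0.04458 (adjusted p = 0.6279, limma).

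INHBA and INHA are among the brightest probes of the array. INHBA reached 90% of the brightest spot in its channel on 8 of 18 arrays in Cy3 and 11 of 18 in Cy5, and INHA on 7 and 3, while no other member did on any. INHBA also read differently by dye: the orientation with coasted RNA in Cy5 exceeded the other by a median of 2.09 and at most 3.88 on the log2 scale. At 68 h its mean was -0.47 with coasted RNA in Cy3 and 1.93 in Cy5, so its direction there depends on the dye. INHA had a median dye gap of 0.62 and at most 1.55. Its mean was -0.75 with coasted RNA in Cy3 and -0.02 in Cy5 at 68 h, and -1.30 and -0.41 at 92 h. INHBB had a dye gap of the other sign, with a median of -1.87, but its 2 orientations kept the same order of replicates (r = 0.99 over 9, against 0.69 for INHBA). Its mean at 44 h was 0.48 with coasted RNA in Cy3 and -1.19 in Cy5. The part of these gaps and of spot brightness in the results was not tested.

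**Figure D2:**
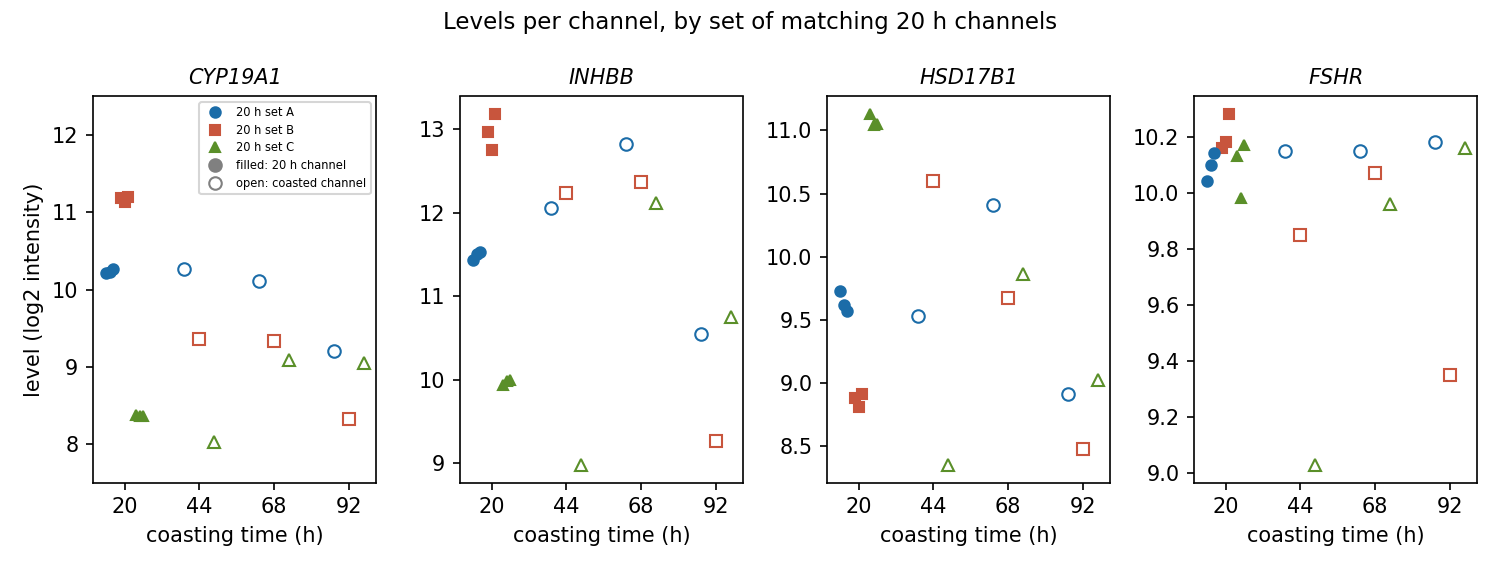
Level (log2 intensity, y axis) of CYP19A1 (brightest probe), INHBB, HSD17B1 and FSHR at each coasting time (x axis), with filled points for the 20 h channels and open points for coasted channels, marked by the set of 20 h channels they were hybridised against. CYP19A1 and INHBB are highest in set B and lowest in set C at 20 h, HSD17B1 has the reverse order, and FSHR differs little between sets.

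The test between the longer times called 0 of 8 member probes for 92 h over 44 h, 92 h over 68 h and 68 h over 44 h, as it did 0% of all probes. At an unadjusted p under 0.05 the whole array had 2114, 1442 and 1505 probes in these comparisons. By levels, 3 of 8 member probes (the EMBV3_36093 probe of CYP19A1, HSD17B1 and INHBB) were lower in all 3 samples at 92 h than in all 3 at 68 h, where 11.6% of all probes were. Between 92 h and 44 h it was 2 of 8, both of CYP19A1, against 8.12%. Between 92 h and all 9 channels at 20 h it was 3 of 8 (both dimmer CYP19A1 probes and INHA), against 7.81%, and between 68 h and 20 h it was 2 of 8 (EMBV3_08064 and INHA), against 4.84%. Between 44 h and 20 h it was 0 of 8, against 1.79%, and between 68 h and 44 h 1 of 8 (EMBV3_08064), against 4.97%. EMBV3_08064 was kept only through its 20 h channels, being above background on 12 of 18 there and on 1 of 6 arrays at each longer time. Its place in these counts is therefore no support for a lower level. In the higher direction 0 of 8 were free of overlap with 20 h, where 2% of all probes were at 44 h, 4.29% at 68 h and 7.66% at 92 h. In the fit on coasted levels the smallest adjusted p of a member was 0.1355, for EMBV3_36093 at 92 h over 44 h, a difference of -0.42.

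The question of whether these genes move together was taken up over the 9 replicate ratios with the brightest probe of each gene. Pearson's r is given as a description, without a p, because the 9 values may share 20 h RNA within sets and are then not independent. INHBA and INHBB had r = 0.99 (Spearman's rho 0.93), and among 11046 genes none was more like INHBA than INHBB. INHA had r = 0.88 with INHBA and 0.87 with INHBB. CYP19A1 had r = 0.86 with INHBA, 0.86 with INHBB and 0.81 with INHA, above the 95th percentile of all genes for CYP19A1, 0.68. In CYP19A1's order of likeness INHBB came at rank 80, INHBA at 85 and INHA at 195.

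For FSHR, r over the ratios was 0.75 with INHA, 0.75 with INHBA, 0.71 with INHBB and 0.47 with CYP19A1, all below its 95th percentile over all genes, 0.76. This order changed with the values used. Without 44 h replicate 3 and 92 h replicate 2, the ratios farthest from the median of FSHR, r was 0.86 with INHA, 0.64 with CYP19A1, 0.57 with INHBA and 0.43 with INHBB. On coasted levels r was 0.82 with CYP19A1, 0.76 with INHBB, 0.68 with INHBA and 0.64 with INHA. Spearman's rho there was 0.44, 0.25, 0.63 and 0.63, and 44 h replicate 3 and 92 h replicate 2 were the low FSHR samples. HSD17B1 had r = -0.49 with CYP19A1, -0.02 with INHA and -0.03 with INHBA and INHBB. The median over the 15 pairs was 0.75. As deviations from each time's mean, r was 0.99 for INHBA with INHBB, 0.93 for CYP19A1 with INHBB and 0.83 for FSHR with INHA. Each time holds a replicate of each 20 h set, so these deviations keep the differences between 20 h partners. They cannot show by themselves that coasted replicates varied together. For the same pairs r was 0.43, 0.98 and 0.53 on 20 h levels, where HSD17B1 had -1 with CYP19A1 and -0.98 with INHBB. On coasted levels, as deviations from each time's mean, r for these pairs was 0.50, 0.89 and 0.75. For CYP19A1 the ratio, taken from levels, had r = -0.83 with its 20 h level and 0.30 with its coasted level. These were -0.82 and 0.99 for INHA, -0.84 and 0.94 for INHBA and -0.61 and 0.68 for INHBB. For FSHR they were -0.52 and 0.98, and for HSD17B1 -0.85 and 0.77.

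The likeness was smaller without the most extreme samples. Without 92 h replicate 2 and 44 h replicate 2, the ratios farthest from the median of CYP19A1, r fell to 0.67 with INHBA, 0.72 with INHBB, 0.49 with INHA and 0.10 with FSHR. Coasted levels alone, a view added after the data were seen, gave another picture over the 9 samples. There HSD17B1 had r = 0.92 with INHBB and 0.72 with CYP19A1, but 0.57 with FSHR (Spearman's rho 0.14), 0.46 with INHBA and 0.40 with INHA. CYP19A1 and INHBB kept r = 0.85, INHA and INHBA had 0.96, and INHBA and INHBB 0.62. In 44 h replicate 3 the levels of FSHR (9.03), CYP19A1 by its brightest probe (8.02), HSD17B1 (8.35) and INHBB (8.98) were each the lowest of the 9 coasted samples, and in 92 h replicate 2 each was the second lowest. The dimmer CYP19A1 probes did not read low in 44 h replicate 3. EMBV3_36093 (8.41) and EMBV3_08064 (7.92) were among their highest coasted levels there.

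The genes most like CYP19A1 were TRIB2, a pseudokinase gene (r = 0.97), LAMTOR2 (0.96), SHISA5 (0.96), PIGH (0.95) and PFN1, profilin (0.95). Most opposed were AKAP13 (-0.97), ADAMDEC1 (-0.97), ZNF280B (-0.96), NOL10 (-0.95) and ADAM3A (-0.95). After INHBB, the nearest to INHBA were PRR15 (0.98), B3GALT1 (0.97), SNAPIN (0.96) and the lipoprotein receptor gene LRP8 (0.96). For FSHR they were ST3GAL5 (0.97), REEP4 (0.96), LOC613752 (0.96), ABHD17A (0.96) and NEU1, neuraminidase (0.95). For INHA they were LOC100294980 (0.97), MPHOSPH9 (0.96), UNC5C (0.95), LOC534967 (0.95) and ALG10 (0.95). With 9 values and 11046 genes, some r of this size arise for any gene.

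**Figure D3:**
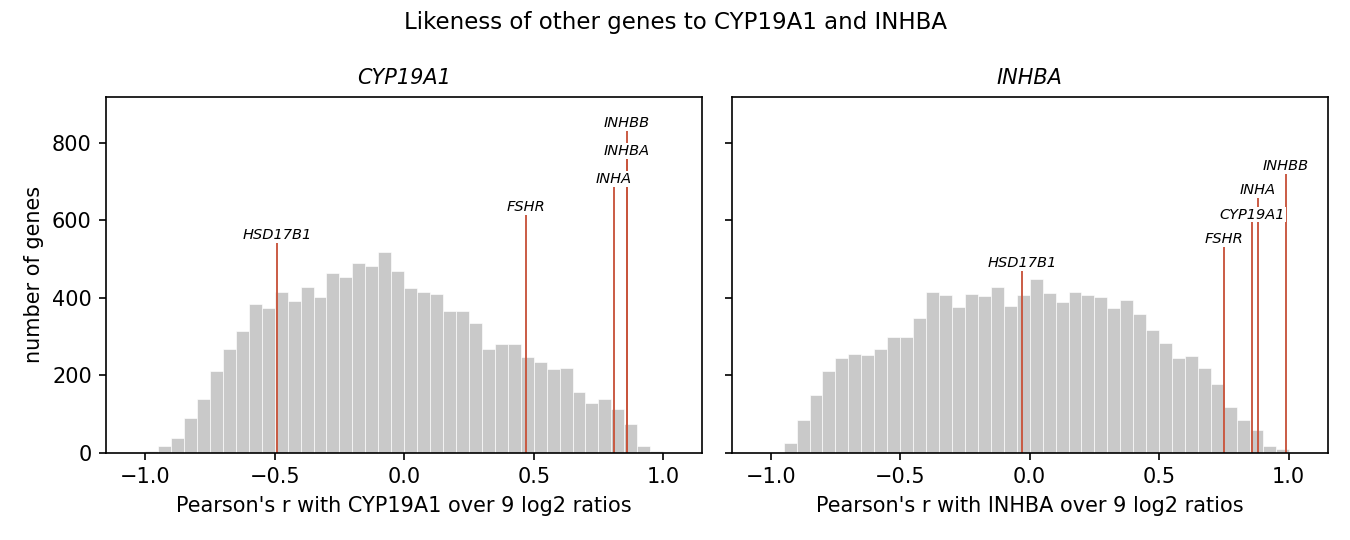
Number of genes (y axis) by Pearson's r of their 9 log2 ratios with CYP19A1 (left) and with INHBA (right), in bins of 0.05, with lines at the other members. INHA, INHBA and INHBB lie at the high end for CYP19A1, FSHR at 0.47 and HSD17B1 at -0.49.

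Genes of the wider pathway were counted from lists, 1 probe per gene, against 11047 genes. At 92 h the test called 0.941% of all genes higher and 0.797% lower, and at 44 h and 68 h 0%. Among 14 tested genes of FSH receptor signalling and cyclic AMP, 0 passed at any time, with a median log2 ratio of 0.05 at 44 h, -0.14 at 68 h and -0.01 at 92 h. The nearest to the threshold was RGS2, a regulator of G protein signalling, with 0.88, 1.09 and 0.04 at 92 h (adjusted p = 0.1205, limma). At 44 h the nearest were PDE4B, a phosphodiesterase that breaks down cyclic AMP, at 0.74 ± 0.36, and the adenylyl cyclase ADCY6 at 0.86 ± 0.44 (both adjusted p = 0.2561, limma). PRKAR1A, a regulatory subunit of protein kinase A, gave -0.89, -1.04 and -0.80 at 68 h (adjusted p = 0.4524, limma). Of 12 granulosa transcription factors 0 passed. CTNNB1, beta-catenin, gave 0.38, 0.69 and 1.01 at 44 h and 0.30, 0.87 and 0.91 at 92 h (adjusted p = 0.3506 and 0.1743, limma).

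Of 13 tested genes of the activin and inhibin pathway 0 passed at any time. TGFBR3, betaglycan, the coreceptor for inhibin, gave 1.32, 0.73 and 1.63 at 92 h, a mean of 1.23 ± 0.46 (adjusted p = 0.1412), and the activin receptor ACVR2A gave 0.24, 0.40 and 0.31 (adjusted p = 0.07253, limma). FST, follistatin, which binds activin, was the gene of this list most like CYP19A1 (r = 0.86) and INHBA (r = 0.84). It was singled out after its values were seen. Among 18 growth phase granulosa genes 0 passed. VCAN, the matrix proteoglycan versican, gave -1.79, -1.84 and -1.51 at 68 h (adjusted p = 0.347, limma).

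Among 14 tested steroid synthesis genes, HSD3B1 fell at 92 h and no other passed. HSD3B1, which makes progesterone from pregnenolone, gave -1.23, -1.19 and -1.19, a mean of -1.20 ± 0.02 (adjusted p = 0.04972, limma). Unlike CYP19A1, it was as low in replicate 3 as in replicate 2. Among 22 ovulatory response genes VNN1, a pantetheinase, rose by 4.19, 4.05 and 3.03 at 92 h (mean 3.76 ± 0.63, adjusted p = 0.02728, limma) and no other passed. Both calls were lost, with a smallest adjusted p of 0.06738, when the replicate number was a block. The 2 calls over the lists became 0 without 68 h replicate 1, 68 h replicate 3, 92 h replicate 1 or 92 h replicate 2, and 1 without 44 h replicate 2 or 92 h replicate 3.

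The 92 h replicate in which CYP19A1 and the inhibin subunit genes were lowest was the one in which several ovulatory genes were highest. TNFAIP6, whose protein links hyaluronan in the expanding cumulus, gave 1.06, 4.39 and -0.06 at 92 h. PTX3, pentraxin 3, another cumulus matrix protein, gave 0.64, 4.67 and -0.05. ADAMTS1, a protease of the ovulatory follicle, gave 0.48, 2.37 and 0.05. In each, replicate 2 was far above the others and replicate 3 was at the 20 h level, the mirror of the order in INHBA, INHBB and the brightest CYP19A1 probe. The dimmer CYP19A1 probes were lowest in replicate 2 too, but did not read above 20 h in replicate 3. PLAT, tissue plasminogen activator (0.68, 3.69 and 0.00), and STC1, stanniocalcin (1.54, 3.14 and 0.48), had the same order. None of these 5 passed (adjusted p from 0.1782 to 0.3546, limma). They are given because their order at 92 h mirrors that of these members, and were singled out after their values were seen. The mirror did not hold throughout at the shorter times. At 68 h TNFAIP6 (-0.85, 0.05 and -0.02), PTX3 (-0.22, -0.04 and -0.02) and PLAT (-0.42, -0.02 and -0.06) were lowest in replicate 1, like INHBA. ADAMTS1 at 44 h (-0.48, 0.14 and 0.49) mirrored the order of INHBA and INHBB, but not that of the brightest CYP19A1 probe. At 68 h ADAMTS1 gave 0.19, 0.00 and -0.40. It was lowest in replicate 3 there, whereas INHBA, INHBB and the brightest CYP19A1 probe were highest in replicate 2. STC1 was lowest in replicate 3 at 44 h (-0.47, 0.10 and -2.09), like INHBA, and at 68 h (-0.26, -0.08 and -0.53). TNFAIP6 was above background in only 8 of 18 channels at 20 h.

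The median of the ovulatory list at 92 h was 0.24, 0.77 and 0.01 in the 3 replicates, and 0.34 over the means, against 0 for all genes. Not every gene of it took part. PGR, the progesterone receptor, gave -0.56, -0.68 and -0.49, and HAS2, which makes hyaluronan, only 0.21, 0.92 and 0.01. Both were singled out after their values were seen. Over the 9 ratios the 22 genes had a median r of -0.65 with INHBA, -0.61 with INHA, -0.54 with CYP19A1 and -0.43 with FSHR, where the median over all genes was -0.02, 0.00, -0.09 and 0.06. Of the 22, 8 lay below the 5th percentile of all genes for INHBA and 2 for CYP19A1. Whether the ovulatory genes have a part in the members' values was not tested.

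**Figure D4:**
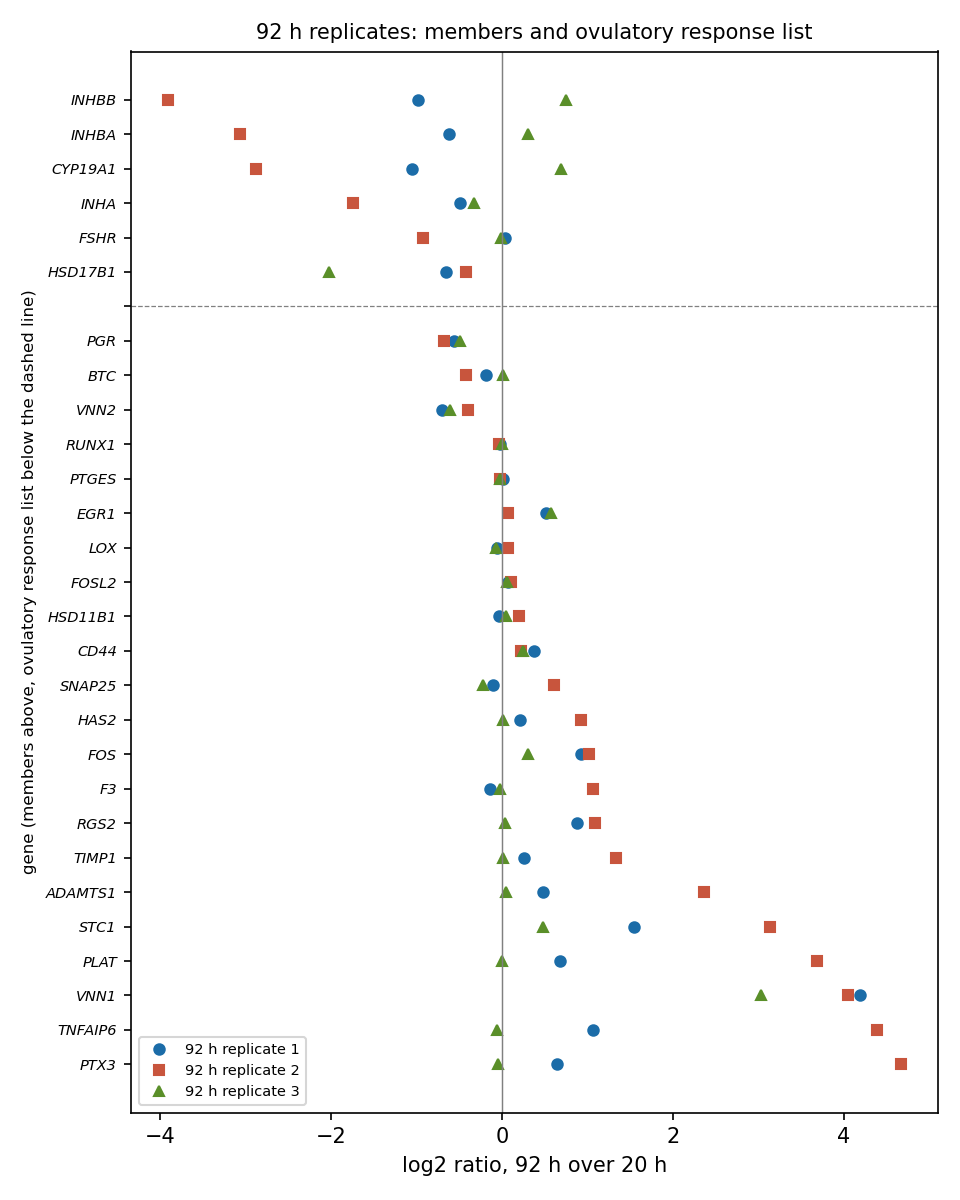
Log2 ratio of 92 h over 20 h RNA (x axis) in each 92 h replicate for the brightest probe of the 6 tested members (above the dashed line) and the 22 tested genes of the ovulatory response list (below it), each sorted by replicate 2. Replicate 2 holds the lowest INHBB, INHBA and CYP19A1 and the highest PTX3, TNFAIP6, PLAT and STC1.

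The mean level over 10 granulosa and cumulus markers was 10.73 to 10.97 at 20 h, 10.50 to 10.84 at 44 h, 10.81 to 10.97 at 68 h and 10.76 to 10.95 at 92 h. HSD17B1 and INHA are among these 10, so the mean is not separate from the members' own values. This mean covers markers that went both ways at 92 h. GATM, an enzyme of creatine synthesis, rose by a mean of 2.63 ± 0.75 (adjusted p = 0.04985, limma), CDH2, N-cadherin, gave 1.83 ± 1.24 (adjusted p = 0.09631, limma) and AMH, given above, -1.20 ± 0.52. The 15 theca markers, LHCGR among them, averaged 8.70 to 9.14 at 92 h, against 8.51 to 8.69 at 20 h, and 5 of them were never above background at 92 h. Of the 12 theca markers tested at 92 h, 1 passed: MYH11, a smooth muscle myosin, rose (1.83, 1.49 and 1.10, adjusted p = 0.01494, limma). Of the 12, 7 had a mean above 0, and the median was 0.01. PDGFRA gave 1.66 ± 0.58 (adjusted p = 0.05463, limma), COL3A1 0.93 ± 1.60, ACTA2 0.57 ± 0.20 and LUM -0.48 ± 1.00. CYP17A1, which makes theca androgens, gave -0.01 ± 0.02 and INSL3 -0.09 ± 0.03. These were above background at 92 h on only 0 and 2 of 6 arrays. Like every probe, GATM and MYH11 did not pass without 92 h replicate 1. The 14 leukocyte markers averaged 8.07 to 8.28 at 92 h, against 7.88 to 7.99 at 20 h. Of the 5 tested, 0 passed: CD68 gave 0.93 ± 0.51, CXCR4 1.43 ± 0.65, CD74 0.26 ± 0.28, PTPRC 0.05 ± 0.06 and CD3E -0.02 ± 0.07 (adjusted p from 0.05909 to 0.8919, limma). These marker genes were singled out after their values were seen, and their part in the members' results was not tested. Oocyte, endothelial and erythrocyte markers averaged at most 8.21, 7.88 and 8.19 at any time.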

How the data were processed

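Per the labels' protocols, cumulus RNA was amplified in 2 rounds, dye-labelled and put on 18 Agilent arrays with 2 channels. The deposited scanner tables give, per the file headers, the uncorrected mean intensity of spot and local background. The deposited value table holds log2 ratios that follow Cy5 over Cy3 (r 0.81 to 0.91, slope 0.55 to 0.79, medians -0.04 to 0.02). Its correction and normalization stay unknown, and it served as an alternative. Scanner and software are not given here.

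Background was corrected by normexp (offset 50), arrays by loess with control spots at weight 0, and dye swaps of the same numbers were averaged, a reading the labels do not state outright. Probes were kept if above the mean plus 2 SD of 153 negative controls on 50% of the arrays of at least 1 time. Levels used Aquantile scaling. Loess hides a shift of most genes, and dim probes have compressed ratios. limma 3.58.1 (R 4.3.3) fitted 9 values with 1 coefficient per time (6 residual degrees of freedom), two-sided, Benjamini-Hochberg over 27391 probes, threshold 0.05. Symbols came from the platform table: 21790 probes had 1, 22004 had none and 0 had several, with 1524 updated and 241 unmatched. In simulated data on 27391 probes for 92 h, 74 of 100 probes changed by 1 and 92 of 100 changed by 2 (log2) were recovered, with 13 false calls. The errors were drawn as independent, and the changed probes came from all probes, whose median SD at 92 h was 0.11. Tested member probes had SDs of 0.32 to 2.36 at 92 h, so these rates do not hold for them.

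No label ties a replicate number to an animal. Deviations from the time's mean of equal numbers correlated at 44 and 92 h with r of 0.33, 0.24 and 0.22, so numbers were also used as a block. Pairs with 68 h gave -0.40 to 0.01. The numbers of 44 and 92 h match the 20 h sets. The 92 h arrays lie on slides of their own.

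Named genes, apart from those the text gives as singled out later, are all member probes, list genes past the threshold or else the 2 of smallest p per list and time, and the 5 genes most and least like each of 4 members. Members and lists were chosen with earlier results of these data known. The number of arrays limits the precision.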

Additional observations from a re-analysis of the deposited data

How the results depend on the processing

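Each test was repeated with no background correction, median centring, other filters on dim probes, 1 probe per gene, 1 dye orientation, each time alone, a trended and robust prior, the authors' value table, slide, replicate or 20 h set as block, and leaving out each replicate. Member probes called stayed at 0 under all of these except as follows. With the slide as a random block over 18 arrays, which counts dye swaps as separate values (consensus correlation -0.21), 1 passed at 44 h (FSHR, adjusted p = 0.01821) and 6 at 92 h (CYP19A1 by 3 probes, INHA, INHBA and INHBB). With the 20 h set as a block, chosen after seeing the data, 1 passed at 92 h (CYP19A1 by EMBV3_36093, -0.69, adjusted p = 0.02194, limma). That p leaves out the differences between sets. With the replicate block 0 passed at 44, 68 and 92 h (smallest adjusted p = 0.7505, 0.5426 and 0.2191). Leaving out any 1 replicate gave 0 at each time and 0 for the differences between longer times.

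The list genes called, 2 in all, were 0 with median centring, each time alone, the trended prior or the replicate block, 1 without a filter on dim probes, 21 with coasted RNA in Cy3 alone, 43 with the slide as a random block and 4 with the 20 h set as a block, and from 0 to 3 leaving out 1 replicate. Over all probes, the 355 calls at 92 h were 703 without background correction, 15 with median centring, 176 without the filter, 4505 and 712 with coasted RNA in Cy3 and Cy5 alone, 0 with each time alone or the trended prior, 74 with the replicate block, 8668 with the slide as a random block and 813 with the 20 h set. They ranged from 0 to 628 leaving out 1 replicate. At 68 h the 0 calls became 7 with median centring, 6931 and 340 by dye, 2227 and 498 with the slide as a random and a fixed block, and up to 38 leaving out 1 replicate. At 44 h they became 589 and 614 by dye and 6673 and 1 with the slide. The causes were not tested.

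The median r of 0.75 over 15 member pairs was 0.57 without the 2 ratios farthest from the median of CYP19A1 and 0.28 on 20 h levels. Pairs that changed sign all involve HSD17B1. With INHA its r was 0.35 with coasted RNA in Cy5, 0.33 without those 2 ratios and 0.40 on coasted levels. With INHBA it was 0.13, 0.27 and 0.46. With INHBB it was 0.18 without those 2 and 0.92 on coasted levels, with CYP19A1 0.72 on coasted levels, and with FSHR -0.51 on 20 h levels, which amount to 3 sets. Spots near the brightest of the array limit what INHBA and INHA can show upward, and LHCGR lies under the background.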
